A study of Homo sapiens with 10 samples.

Results

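ATF4 and CHOP, the product of DDIT3, are transcription factors of the integrated stress response, and the genes described here are those 2 regulators together with TRIB3, ATF3, ATF5, CEBPB, CHAC1, DDIT4, PPP1R15A and EIF4EBP1. They were taken by gene symbol from the array annotation. Of the 10 genes, 7 had a named probe set (ATF4, DDIT3, ATF3, ATF5, TRIB3, DDIT4 and EIF4EBP1), each exactly 1, among 14884 named genes in all. CEBPB, CHAC1 and PPP1R15A were not analysed here.

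The RNA came from MCF10A, a human breast epithelial cell line that is immortal but does not form tumours. There were 5 arrays of H2A.X-KO cells, in which the gene of the histone variant H2A.X was knocked out, and 5 of parental WT cells, with replicates numbered 1 to 5 in each group. All cells were grown in medium with horse serum, EGF, insulin, hydrocortisone and cholera toxin, with no stress agent named in the labels, and were harvested after 48 h. The labels do not say how the knockout was made, whether it was 1 clone, or whether the replicates were separate cultures, so the p-values cover only how these samples spread, and that spread may be technical.

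The integrated stress response begins when kinases that sense amino acid shortage, misfolded proteins in the endoplasmic reticulum, double-stranded RNA or mitochondrial and haem stress phosphorylate the translation factor eIF2. General translation then falls while translation of the ATF4 mRNA rises, and ATF4 protein switches on genes for amino acid supply together with DDIT3, ATF3 and TRIB3. Because ATF4 is controlled in large part at translation, its mRNA is not a measure of its protein. TRIB3 and PPP1R15A act back on the pathway, and CHAC1, DDIT4 and EIF4EBP1 carry parts of the response into glutathione breakdown and into the control of translation by mTORC1.

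Promoter windows of the 3 members with the largest falls, DDIT3, TRIB3 and ATF3, are shown because these genes are known targets of ATF4 and moved together. Each stretch holds the 250 bases before a start of the gene in RefSeq, GRCh38.p14, read 5′ to 3′ on the strand of the gene. Capitals mark a match to the C/EBP-ATF response element, searched as TGATGNAA on both strands. The outermost start of TRIB3 is at chr20:380760, so the TRIB3 stretch lies inside the gene.
DDIT3, chr12:57520515-57520764, minus strand: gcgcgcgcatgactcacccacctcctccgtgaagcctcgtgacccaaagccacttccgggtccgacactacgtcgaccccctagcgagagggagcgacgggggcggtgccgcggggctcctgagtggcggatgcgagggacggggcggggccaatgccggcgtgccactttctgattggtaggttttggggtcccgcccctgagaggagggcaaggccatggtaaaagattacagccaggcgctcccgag
TRIB3, chr20:381045-381294, plus strand: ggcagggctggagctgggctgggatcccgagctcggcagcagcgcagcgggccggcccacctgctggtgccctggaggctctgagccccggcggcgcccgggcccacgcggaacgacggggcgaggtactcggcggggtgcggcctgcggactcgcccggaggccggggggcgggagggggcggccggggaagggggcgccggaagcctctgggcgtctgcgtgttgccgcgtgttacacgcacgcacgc
ATF3, chr1:212565157-212565406, plus strand: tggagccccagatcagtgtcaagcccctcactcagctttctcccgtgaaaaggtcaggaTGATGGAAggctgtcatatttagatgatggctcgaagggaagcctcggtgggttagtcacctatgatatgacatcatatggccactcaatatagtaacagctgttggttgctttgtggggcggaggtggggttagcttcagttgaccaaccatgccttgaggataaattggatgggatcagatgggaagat

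The search also covered the 50 bases after each start and the cAMP response element, TGACGTCA, the same on both strands, which shares no overlapping match with the first motif in these windows. RefSeq windows were held for 9 of the 10 genes, EIF4EBP1 being the exception. Among the 6 measured genes with a window, TGATGNAA was found in 1, the upstream start of ATF3, as TGATGGAA at chr1:212565216-212565223, 191 bases before the start. Among the genes not analysed on the arrays, CHAC1 held TGATGNAA and PPP1R15A held TGACGTCA. Of 27305 genes in the table, 4.46% held TGATGNAA in a window and 2.25% held TGACGTCA. No match says only that these letters are not in the window. For TRIB3 every window lay inside the gene, and the bases before its outermost start were not searched.

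H2A.X-KO cells had lower signals for 6 of the 7 measured genes, and higher signal for ATF5 alone. DDIT3, TRIB3, ATF3 and EIF4EBP1 kept 16.0%, 19.7%, 28.7% and 33.3% of their parental signal in knockout cells. ATF4 was 1.51-fold lower and DDIT4 1.17-fold lower. In bulk RNA such as this, fewer cells expressing a gene and less of its RNA per cell cannot be told apart. Differences are knockout minus parental on the log2 scale, tested with limma, and a gene passed at a Benjamini-Hochberg adjusted p under 0.05 over all 14884 genes. All 7 passed, against 34.3% of all genes. By direction, 6 of 7 fell against 19.0% of all genes, and 1 of 7 rose against 15.3%. A fall of at least 2-fold was seen in 4 of 7, against 1.50% of all genes. The 6 that fell had every knockout array below every parental array, against 16.0% of all genes. The median difference of the 7 was -1.59, against 0.00 over all genes. These genes were chosen with earlier results of these arrays known, so the counts describe them and are no independent evidence of their direction.

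**Figure D1:**
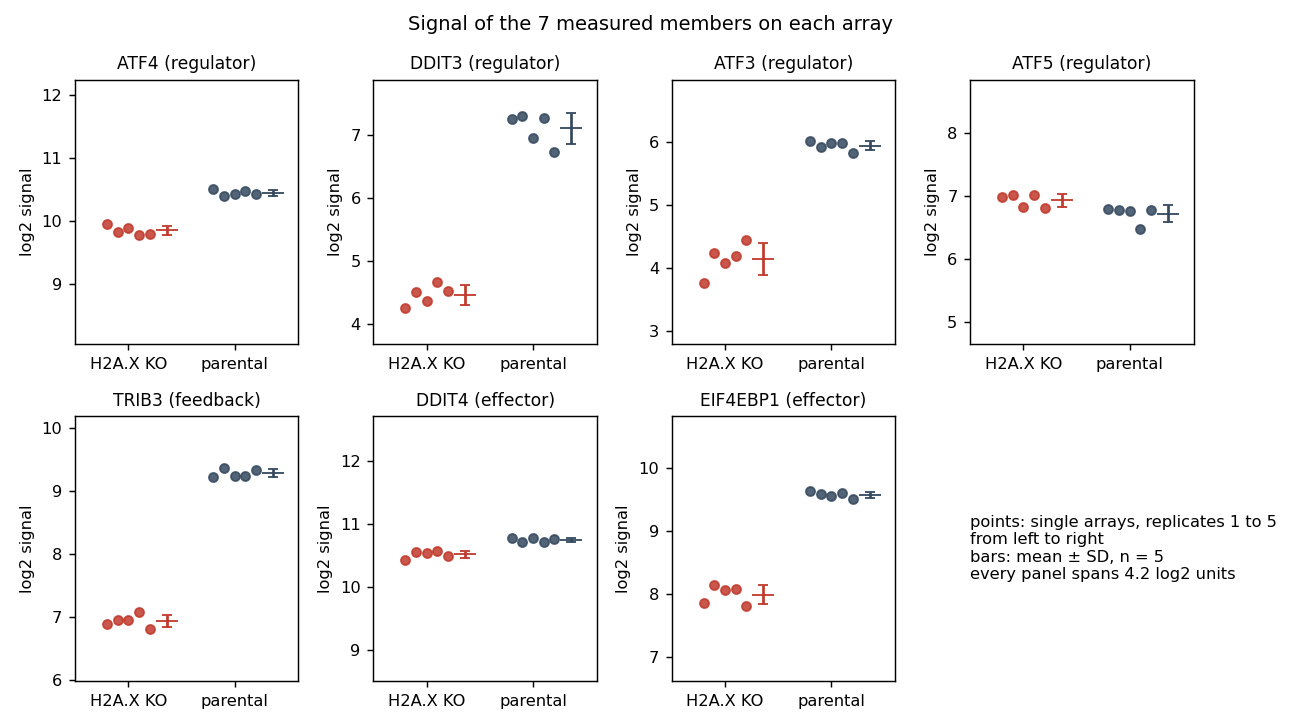
Log2 signal of the 7 measured genes on each array, H2A.X-KO left of parental WT. Points are single arrays and bars the mean ± SD (n = 5 each), and every panel spans the same height, so that the gap of 2.07 for DDIT3 can be set beside the gap of 0.14 for DDIT4.

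The array medians lay between 4.26 and 4.35 in all samples. On the second principal component knockout replicate 1 lay away from the rest of its group, at 20.2 against -9.47 to -2.52, and results are given without it where it matters. The targeted gene was not analysed here, so the groups rest on the labels. Only 4 of 12 listed basal epithelial markers were measured. These, KRT5, KRT14, EGFR and DSG3, had group means above the median gene in knockout and in parental cells. All 4 rose in knockout cells, against 15.3% of all genes, by 2.59 for KRT14, 0.78 for KRT5, 0.69 for EGFR and 0.25 for DSG3. Their groups did not overlap. Of 7 measured fibroblast markers 4 rose and 1 fell, against 15.3% and 19.0% of all genes. The rises were in DCN (2.06), MFAP5 (1.49), FBLN1 (1.35) and PDPN (0.56), each with no overlap between groups. The summed signal of the 7 was 9.20 to 9.38 (log2) in knockout cells, against 8.27 to 8.39 in parental cells. Of 7 endothelial markers 1 rose, KDR (1.69), and of 5 immune cell markers 1 rose, CSF1R (0.72), and 2 fell, CD14 (-0.76) and CD68 (-0.37). Of 4 adipocyte markers 1 fell, PPARG (-0.61). Under the median gene in both groups lay 3 fibroblast, 6 endothelial, 3 immune and all 4 adipocyte markers, CD14 and PPARG among them. The part of these marker changes in the results below was not tested.

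Among the regulators, ATF4 is the transcription factor at the centre of the response. Its signal was 9.96, 9.81, 9.89, 9.78 and 9.79 (log2) in H2A.X-KO replicates 1 to 5, against 10.50, 10.40, 10.42, 10.46 and 10.42 in WT replicates 1 to 5. Both groups were narrow and did not overlap, with a gap of 0.44 between the highest knockout array and the lowest parental array. The mean was 9.85 ± 0.08 in knockout and 10.44 ± 0.04 in parental cells (SD, n = 5 each), a difference of -0.60 ± 0.05 (SE, limma adjusted p = 1.91e-06), so knockout cells kept 66.2% of the parental signal.

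DDIT3 encodes CHOP, a transcription factor of the C/EBP family that is induced by ATF4 and is known for promoting cell death in prolonged stress. It stood at 4.24, 4.51, 4.36, 4.66 and 4.52 in knockout replicates 1 to 5, against 7.25, 7.30, 6.95, 7.26 and 6.73 in parental replicates 1 to 5. Every knockout array was lower by at least 2.07, more than 3 times the 0.58 spanned by the parental arrays, among which replicates 3 and 5 were the lowest. The difference was -2.64 ± 0.12 (SE, limma adjusted p = 3.31e-09), the 10th lowest of all genes. The knockout signals lay under 5.49, the mean signal of the median gene, where array signals are compressed, so the 6.24-fold is uncertain in size.

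ATF3, a transcription factor induced by ATF4 and by many other stresses, showed the same shape at a lower signal. Knockout replicates 1 to 5 were at 3.76, 4.24, 4.08, 4.19 and 4.44, against 6.02, 5.92, 5.98, 5.98 and 5.83 in parental replicates 1 to 5. The knockout arrays spread over 0.68 and the parental arrays over 0.19, and the groups stayed 1.38 apart. The difference was -1.80 ± 0.10 (SE, limma adjusted p = 3.31e-08), or -1.71 without knockout replicate 1, the lowest array. Here too the knockout signals were dimmer than the median gene.

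ATF5, a relative of ATF4 that is likewise controlled at translation and takes part in the mitochondrial stress response, did not follow the others. Its knockout signals were 6.98, 7.01, 6.82, 7.01 and 6.81, against 6.80, 6.77, 6.76, 6.48 and 6.77 in the parental arrays. The groups were separated by 0.01 only, and parental replicate 4 lay well below the other 4 parental arrays. The rise of 0.21 ± 0.08 (SE, limma adjusted p = 0.0453) ended as a call without that array (0.15, limma adjusted p = 0.0993) and with the replicate number as a block (limma adjusted p = 0.0783). Leaving out knockout replicate 1, 2 or 4, or parental replicate 2, 3 or 5, also ended the call, at limma adjusted p of 0.0822, 0.101, 0.0992, 0.0593, 0.0615 and 0.0567. The sign stayed positive in each of these fits.

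The measured feedback gene was TRIB3, a pseudokinase that is induced by ATF4 and CHOP and restrains both ATF4 activity and AKT. It was at 6.88, 6.96, 6.95, 7.07 and 6.80 in knockout replicates 1 to 5, against 9.22, 9.36, 9.24, 9.23 and 9.33 in parental replicates 1 to 5. Both groups were tight and lay 2.15 apart, the widest gap of the 7 genes. The difference was -2.35 ± 0.06 (SE, limma adjusted p = 7.05e-11), which left 19.7% of the parental signal. It was the 16th lowest difference of all genes. Unlike DDIT3, TRIB3 stayed above the median gene in both groups.

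The measured effectors were EIF4EBP1 and DDIT4, both of which act on cap-dependent translation through the mTORC1 pathway. EIF4EBP1 encodes 4E-BP1, which holds the cap-binding protein eIF4E inactive until mTORC1 phosphorylates it. Its signals were 7.86, 8.14, 8.07, 8.08 and 7.81 in knockout replicates 1 to 5, against 9.63, 9.59, 9.56, 9.61 and 9.51 in parental replicates 1 to 5. The groups lay 1.37 apart, and the difference was -1.59 ± 0.07 (SE, limma adjusted p = 3.77e-09), which left 33.3% of the parental signal.

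DDIT4 encodes REDD1, an inhibitor of mTORC1 that is also induced by hypoxia and by glucocorticoids, and hydrocortisone was in the medium of both groups. Its knockout signals were 10.43, 10.56, 10.54, 10.57 and 10.49, against 10.78, 10.71, 10.78, 10.71 and 10.76 in the parental arrays. The groups lay 0.14 apart, about as far as the knockout arrays spread among themselves (0.14). The fall was -0.23 ± 0.05 (SE, limma adjusted p = 0.00314), which left 85.4% of the parental signal.

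**Figure D2:**
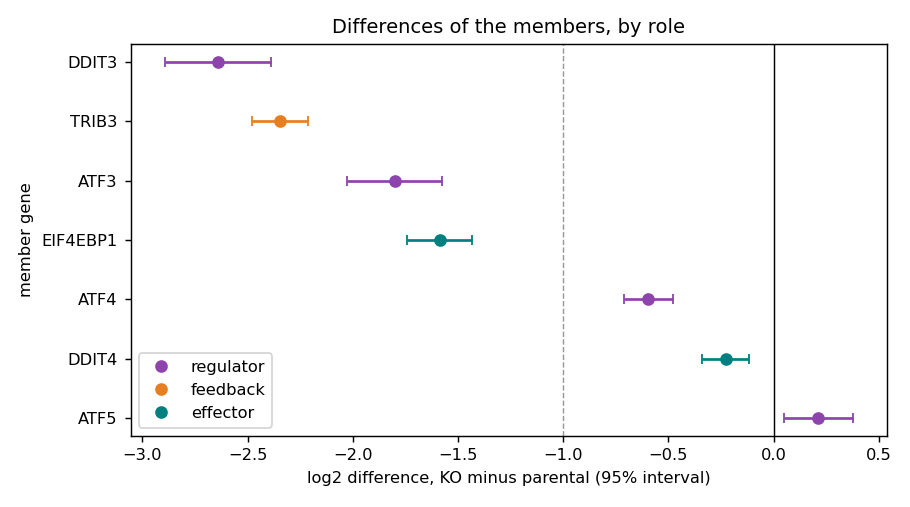
Difference of each measured gene, knockout minus parental on the log2 scale, with its 95% interval, coloured by role. DDIT3, TRIB3, ATF3 and EIF4EBP1 lie beyond -1 (dashed line), ATF4 and DDIT4 lie between -1 and 0, and ATF5 lies above 0.

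Set side by side, the roles did not form separate ranges. The differences of the 4 measured regulators ran from -2.64 to 0.21, the feedback gene was at -2.35, and the effectors were at -1.59 and -0.23. The 95% interval of DDIT3 (-2.89 to -2.39) overlapped that of TRIB3 (-2.48 to -2.21), and the interval of ATF3 (-2.03 to -1.58) overlapped that of EIF4EBP1 (-1.74 to -1.43). The intervals of ATF4 (-0.71 to -0.48), DDIT4 (-0.34 to -0.12) and ATF5 (0.05 to 0.38) overlapped with no other. By non-overlapping intervals, ATF4 mRNA fell less than DDIT3, TRIB3, ATF3 and EIF4EBP1, while dim genes such as DDIT3 and ATF3 have compressed differences.

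No array was extreme for all genes. Knockout replicate 1 was the lowest knockout array for 3 of the 7 genes (DDIT3, ATF3 and DDIT4) and the highest for 1 (ATF4). Knockout replicate 5 was the lowest for 3 (ATF5, TRIB3 and EIF4EBP1). Among parental arrays, replicate 1 was the highest for 4 of 7 and replicate 5 the lowest for 3. Without knockout replicate 1, 6 genes fell and 0 rose, with limma, ATF5 being the lost call (0.20).

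**Figure D3:**
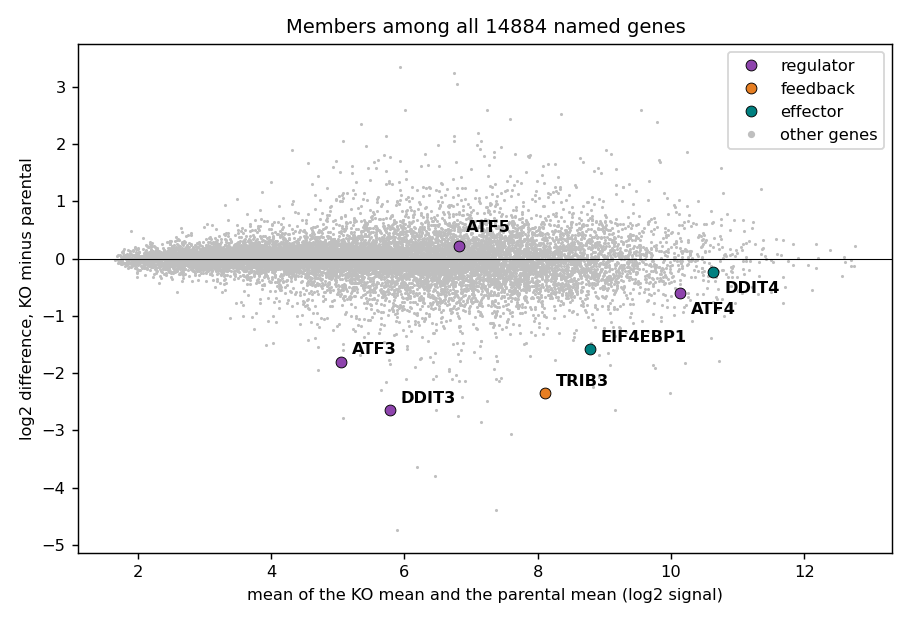
Difference of every named gene (knockout minus parental, log2) against the mean of its 2 group means (log2 signal), with the 7 measured genes marked by role. DDIT3 (-2.64) and TRIB3 (-2.35) lie at the lower edge of the cloud, and ATF5 (0.21) lies within it.

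Gaps between profiles were taken as the root mean square over the 10 arrays after the parental mean of each gene was subtracted. The profiles most like each of 3 regulators were then sought among 7719 other genes whose higher group mean exceeded the median gene. For DDIT3 they were UPP1 (gap 0.16 on the log2 scale), which encodes uridine phosphorylase, HYOU1 (0.19), an endoplasmic reticulum chaperone gene and a near neighbour of the knocked out gene, and WARS1 (0.21), which encodes the tryptophanyl-tRNA synthetase. Their differences were -2.64, -2.64 and -2.48, although other probe sets of HYOU1 and WARS1 gave -1.25 and -1.08. For ATF4 they were the autophagy receptor gene TAX1BP1 (gap 0.05), the mitochondrial chaperone gene HSPA9 (0.06) and the mitochondrial protease gene YME1L1 (0.06), with differences of -0.60, -0.56 and -0.60. For ATF5 they were ANXA6, OMP and AIRE (gaps of 0.07 each), none of which passed the test (limma adjusted p of 0.0757, 0.0840 and 0.180). The gap includes the difference between the groups, so like differences were selected by the search and are no separate evidence of likeness. UPP1 entered the search only through its parental mean (7.79, against 5.15 in knockout cells).

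Upstream of ATF4, the eIF2 kinases differed among themselves. EIF2AK3, which encodes PERK, the kinase of the endoplasmic reticulum, was at 6.53, 6.81, 6.90, 6.75 and 6.65 in knockout replicates 1 to 5, against 7.58, 7.58, 7.61, 7.60 and 7.33 in parental replicates 1 to 5. Those groups did not overlap, and the difference was -0.81 ± 0.08 (SE, limma adjusted p = 3.87e-06). EIF2AK2, which encodes the double-stranded RNA sensor PKR, fell by 0.25 (limma adjusted p = 0.00130). EIF2AK4, which encodes the amino acid sensor GCN2, rose by 0.19 (limma adjusted p = 0.0129, or 0.0552 with the arrays centred on their median). EIF2AK1, the haem-regulated kinase gene, was at -0.04 and did not pass (limma adjusted p = 0.593), and its sign turned under quantile normalisation (0.02). Over the 8 measured genes of the kinases and their activators 3 fell and 3 rose, against 19.0% and 15.3% of all genes, with a median of -0.01 against 0.00 over all genes. The others that passed were IMPACT (-0.36), an inhibitor of GCN2 activation, DELE1 (0.25), which relays mitochondrial stress, and GCN1 (0.22), the activator of GCN2. Of 15 listed genes of or around eIF2, eIF2B and the constitutive phosphatase, only EIF2D and NCK1 were measured, and neither passed. Neither encodes a subunit of eIF2, eIF2B or the phosphatase. The listed subunit genes, such as EIF2S1, EIF2B1 and PPP1R15B, were not analysed here.

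Of 11 measured genes that act on ATF4 turnover and activity, 6 fell, 1 rose and 4 did not pass, with a median of -0.31, against 19.0% and 15.3% of all genes that fell and rose. EGLN1 (-0.64), which encodes an oxygen-sensing prolyl hydroxylase, the deacetylase gene SIRT1 (-0.53), the demethylase gene PHF8 (-0.52) and FBXW11 (-0.46), which encodes a subunit of the ubiquitin ligase that degrades ATF4, were among the falls. CDK1, the mitotic kinase gene, rose by 0.57. Of 14 measured leucine zipper partners and relatives 6 fell and 2 rose, with a median of -0.15, against 19.0% and 15.3% of all genes that fell and rose. The falls included CREM (-0.84), JUND (-0.81), JUN (-0.70), CREB1 (-0.46) and JDP2 (-0.25), and the rises were FOSL2 (0.38) and FOS (0.19, limma adjusted p = 0.0435), and the groups overlapped for FOS. CEBPA, CEBPD and CEBPG, further partners of ATF4 and CHOP, were not analysed here.

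The near relatives of these genes differed in both directions. TRIB1, a pseudokinase like TRIB3, fell by 0.49, while TRIB2 rose by 0.29 by the probe set used and stood at 0.03 by the other. EIF4EBP2, which encodes a relative of 4E-BP1, rose by 0.35 (limma adjusted p = 0.000162), opposite to EIF4EBP1. ATF6, the membrane-bound sensor and transcription factor of a separate branch of the unfolded protein response, was at 9.18 ± 0.04 in knockout and 10.46 ± 0.09 in parental cells (SD, n = 5 each), a difference of -1.28 (limma adjusted p = 4.29e-09). Of the 6 measured relatives 2 fell and 2 rose, against 19.0% and 15.3% of all genes. The rise of TRIB2 did not pass with the probe sets of a gene averaged (0.16, limma adjusted p = 0.0969). DDIT4L and ATF6B did not pass (limma adjusted p of 0.477 and 0.0659).

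Among known targets of ATF4 and CHOP, 32 of 39 measured genes fell and 0 rose, against 19.0% and 15.3% of all genes, and the lists were not tested for enrichment. All 12 aminoacyl-tRNA synthetase genes fell, with a median of -1.03, led by WARS1 (-2.48), MARS1 (-2.24), AARS1 (-1.82) and YARS1 (-1.24). Of 9 measured enzyme genes of amino acid and one-carbon synthesis 8 fell and 0 rose, with a median of -0.79. ASNS, the asparagine synthetase gene, was at -1.94, and the serine synthesis genes PSAT1 and PHGDH were at -1.79 and -1.50. CBS, of the route from homocysteine to cysteine, was at -0.92. Of 18 other targets measured, 12 fell and 0 rose, with a median of -0.76. Among the falls were VEGFA (-2.08), the secreted hormone genes STC2 (-2.07) and GDF15 (-1.65), and the lipoprotein receptor gene VLDLR (-1.55). VLDLR was dimmer than the median gene in knockout (3.93) and parental cells (5.48), so the size of its fall is uncertain. ERO1A, an oxidase gene of the endoplasmic reticulum known as a target of CHOP, was at -0.01 (limma adjusted p = 0.954), and BBC3, the PUMA gene, did not pass either (limma adjusted p = 0.441). The 9 amino acid transporter genes of the list were not analysed here.

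Of 14 listed targets of the XBP1 and ATF6 branches only 6 were measured. All 6 also fell, against 19.0% of all genes, with a median of -0.78. XBP1 itself was at -1.87, SEL1L at -1.28, SDF2L1 at -0.81 and CRELD2 at -0.75. Of 11 measured genes of the mTORC1 pathway, on which DDIT4 and 4E-BP1 act, 1 fell and 2 rose, with a median of -0.09, and the 3 calls were near the share of all genes that passed (34.3%). MTOR, the kinase gene, fell by 0.53, while the inhibitor gene DEPTOR rose by 0.50 and the initiation factor gene EIF4B by 0.32. EIF4E, whose product 4E-BP1 binds, did not pass (limma adjusted p = 0.284).

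**Figure D4:**
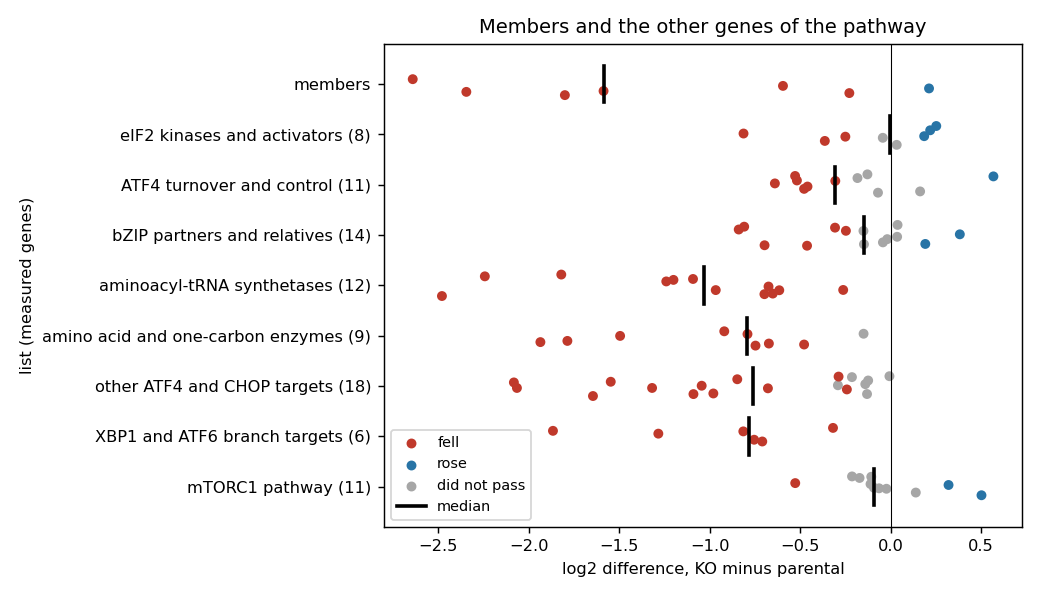
Differences (knockout minus parental, log2) of the 7 measured genes and of 8 lists of other genes of the pathway, 1 point a gene, coloured by the test, with the median as a bar. The medians of the ATF4 target lists lie between -1.03 and -0.76, and those of the eIF2 kinases and of the mTORC1 pathway at -0.01 and -0.09.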

How the data were processed

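Biotin-labelled RNA from 10 MCF10A samples (1 ug of total RNA each) was hybridised to Affymetrix arrays, per the labels' protocols. The authors deposited a table of summarised and normalised log2 signals, with a row for each probe set. Affymetrix Expression Console and Partek 6.6 were used, per the submitters' processing notes, while how signals were summarised or filtered is not given in the sources used here. That the scale is log2 was taken from the range of the values. Scaling arrays to a like median hides any change of all transcripts together. Their number limits the precision of the arrays: the median standard error was 0.08.

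Of 53617 probe sets, 16098 had 1 gene symbol, 0 had several and 37519 had none. Symbols came from the platform annotation, updated by Entrez identifier in RefSeq GRCh38.p14 (all 16098 matched). The probe set with the highest mean stood for each of 14884 genes. The groups were compared with lmFit and eBayes of limma 3.58.1 (R 4.3.3), two-sided, with no covariate and no filter, and with Benjamini-Hochberg adjustment over all genes. On simulated data with the means and spreads of the 14884 genes, 200 genes were changed, 100 by 0.5 and 100 by 1. Of these, 81% and 100% were recovered, with 8 false calls. Far fewer genes were changed there than passed in the data (34.3%), so these rates do not carry over to the calls given here.

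The members and the lists were chosen with earlier results of these data known. All members were named, with the 4 eIF2 kinases and, from each list, up to 4 genes that passed with no overlap between groups, ranked by absolute difference, and the largest in the opposite direction. The genes most like ATF4, DDIT3 and ATF5 were also named. GCN1, EIF2D, NCK1, FBXW11, JDP2, FOS, DDIT4L, ATF6B, ERO1A, BBC3 and EIF4E were added after their values were seen. Alternatives were quantile normalisation, median centring, a filter on dim genes, an intensity trend, array weights, a replicate block, probe set means, all probe sets in the fit, a 2-fold limit and leaving out each array. Sequences are those of RefSeq. Figures were drawn with matplotlib 3.10.9 in Python 3.11.15.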

Additional observations from a re-analysis of the deposited data

Results flagged for a closer look

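Among 66 genes examined in both groups, 8 of 132 groups of 5 arrays held an array far from the other 4, where chance flags about 5%. For ATF5, parental replicate 4 was at 6.48 while the other parental arrays lay between 6.76 and 6.80. For EIF2AK3, parental replicate 5 was at 7.33 against 7.58 to 7.61. For ASNS, knockout replicate 1 was at 6.12 against 6.43 to 6.49. For CREM, parental replicate 2 was at 5.79 against 5.64 to 5.67, for EIF4EBP2 parental replicate 4 was at 9.77 against 9.67 to 9.69, and for PSAT1 parental replicate 1 was at 11.55 against 11.62 to 11.64. For DSG3, parental replicate 5 was at 10.25 against 10.37 to 10.41, and for MFAP5, a fibroblast marker, parental replicate 1 was at 4.87 against 4.30 to 4.42. Without parental replicate 4, ATF5 no longer passed the test (0.15, limma adjusted p = 0.0993).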

How the results depend on the processing

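DDIT3, TRIB3, ATF3 and EIF4EBP1 kept their direction and their call in all 19 alternatives. The intensity trend, replicate block, dim filter, probe set means, all probe sets and 2-fold limit cannot change the differences of the measured genes. Only the adjusted p or the call can change there, so a kept direction is no support. The filter on dim genes is no support for DDIT3 and ATF3, which passed it only through the parental group, where they were higher. ATF4 and DDIT4 kept their direction and their call in 18, and did not meet the added limit of an absolute difference of at least 1 (-0.60 and -0.23). With 1 array left out, the differences ran from -2.73 to -2.59 for DDIT3, -2.38 to -2.31 for TRIB3, -1.88 to -1.71 for ATF3, -1.62 to -1.54 for EIF4EBP1, -0.62 to -0.58 for ATF4, -0.24 to -0.21 for DDIT4 and 0.15 to 0.24 for ATF5.

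ATF5 kept its sign throughout but lost its call with the arrays centred (0.19, limma adjusted p = 0.0778), with all probe sets in the fit (0.21, limma adjusted p = 0.102), under the 2-fold limit (0.21), and without 7 of the 10 arrays in turn. In these cases 0 measured genes rose, so that count was 0 to 1 with an array left out, while 6 fell each time except under the 2-fold limit, where 4 fell. The cause was not tested. Same-numbered samples deviated together only for replicate 1 (correlations across genes from -0.01 to 0.20, with 1 of 5 best matched by its own number), so the numbers are not taken as pairs. With the replicate block ATF5 was at 0.21 (limma adjusted p = 0.0783) and the measured genes that rose numbered 0.

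Over all genes, the limit of 2-fold left 223 that fell and 195 that rose. With all probe sets fitted, 4914 fell and 4198 rose because more features were tested, and with an array left out 2616 to 2762 genes fell and 2069 to 2366 rose. Of 51 other genes named by rule from the lists, EIF2AK1 took the opposite sign under quantile normalisation, at 0.018. Calls of these genes were lost in 33 fits. All were under the 2-fold limit, except EIF2AK4 with centred arrays and TRIB2 with averaged probe sets. The genes named only for a like profile, and those added after their values were seen, were not run through the alternatives. Without knockout replicate 1, an alternative chosen after seeing the data, the counts of the lists were the same except for 13 in place of 12 falls among the other targets and 3 in place of 2 rises in the mTORC1 list, and the kinase list had a median of 0.03. Dim signals limit DDIT3 and ATF3, whose knockout means were 4.46 and 4.14.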
